A study of Mus musculus with 2 samples.

Results

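Antioxidant and glutathione genes were examined in mouse embryonic stem cells. They were found by gene symbol: glutathione S-transferases of the alpha, kappa, mu, omega, pi and theta classes, glutathione peroxidases, peroxiredoxins, every symbol that begins with Txn, glutaredoxins, superoxide dismutases, catalase, haem oxygenases, metallothioneins, the enzymes of glutathione synthesis, and NRF2 (Nfe2l2) with its inhibitor KEAP1. The rule matched 74 of 24061 rows of the count table, and 66 of these had at least 20 counts summed over both libraries, out of 14213 such genes in all. The other 8 were Gsta1, Gsta2, Gpx5, Prdx6b and Txndc8, with 0 counts in both libraries, Gstt4 (2 counts in the control-labelled and 3 in the Pc4-OE-labelled library), Txndc2 (1 and 2 counts) and the pseudogene Gpx2-ps1 (2 and 2 counts).

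The study compared C57BL/6 embryonic stem cells labelled control (passages 17 to 23) with cells of the same strain labelled as overexpressing Pc4 (passages 24 to 37), the transcriptional coactivator encoded by Sub1. Both groups grew with leukaemia inhibitory factor on embryonic fibroblast feeders, and the labels do not say whether feeders were removed before RNA extraction. The overexpressing cells carried a lentivirus with the Venus fluorescent marker, and 3 such lines were derived from picked colonies. Each group was 1 library, so passage and label cannot be told apart, no difference has a replicate check, and no p-value is given.

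The control-labelled library held 10571463 counts and the Pc4-OE-labelled library 10194783. Levels are CPM, counts scaled to a common library total with edgeR's TMM factors, a ratio is always Pc4-OE over control, and paired values are given with the control-labelled library first. The 95% exact interval given with each ratio covers counting error alone. For equal libraries it runs from 0.374 to 2.68 at 20 counts summed and from 0.882 to 1.13 at 1000 counts. A gene is called 2-fold higher or lower when its ratio is at least 2 in that direction and its interval excludes 1. Sub1 itself had 5522 and 2432 counts, or 530.3 and 235.0 CPM (2.26-fold lower, interval 2.15 to 2.37), which goes against the label, so every direction below is that of the labels.

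Glutathione is the main small thiol of the cell. It is made by glutamate-cysteine ligase and glutathione synthetase, used by transferases that conjugate it to reactive compounds and by peroxidases that reduce peroxides, and returned to its reduced form by glutathione reductase. Thioredoxins and peroxiredoxins form a parallel system that depends on thioredoxin reductase. Many of these genes are targets of NRF2, which KEAP1 marks for degradation until oxidants or electrophiles modify KEAP1, so that NRF2 is largely controlled as a protein. Metallothioneins, which bind zinc and copper through cysteines, respond to metals through the factor MTF1.

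Of the 66 measured genes, 15 were called 2-fold higher in the Pc4-OE-labelled library (22.7%, against 11.8% of all 14213 genes) and 1 was called 2-fold lower (1.52%, against 4.02% of all genes). The 15 were Mt1, Mt2, Hmox1, Txnip, Glrx, Sod3, Gpx2, Gpx3, Gpx8, Gstm1, Gstm2, Gstm3, Gstm6, Gsto1 and Gsto2, and the lower gene was Txnl4b. The remaining 50 met the rule in neither direction. The shares of all genes, 11.8% higher and 4.02% lower, are also the reference for each role and list below. The median log2 ratio of the measured members was 0.22, beside -0.01 for all genes, and the members ranged from -1.01 to 2.99. In 41 members the ratio was above 1 (62.1%, against 49.3% of all genes) and in 25 below it. The interval of the ratio excluded 1 in 45 members, 31 upward and 14 downward. Among all 14213 genes it did so upward in 4429 and downward in 4701, so such an interval was common in general.

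**Figure D1:**
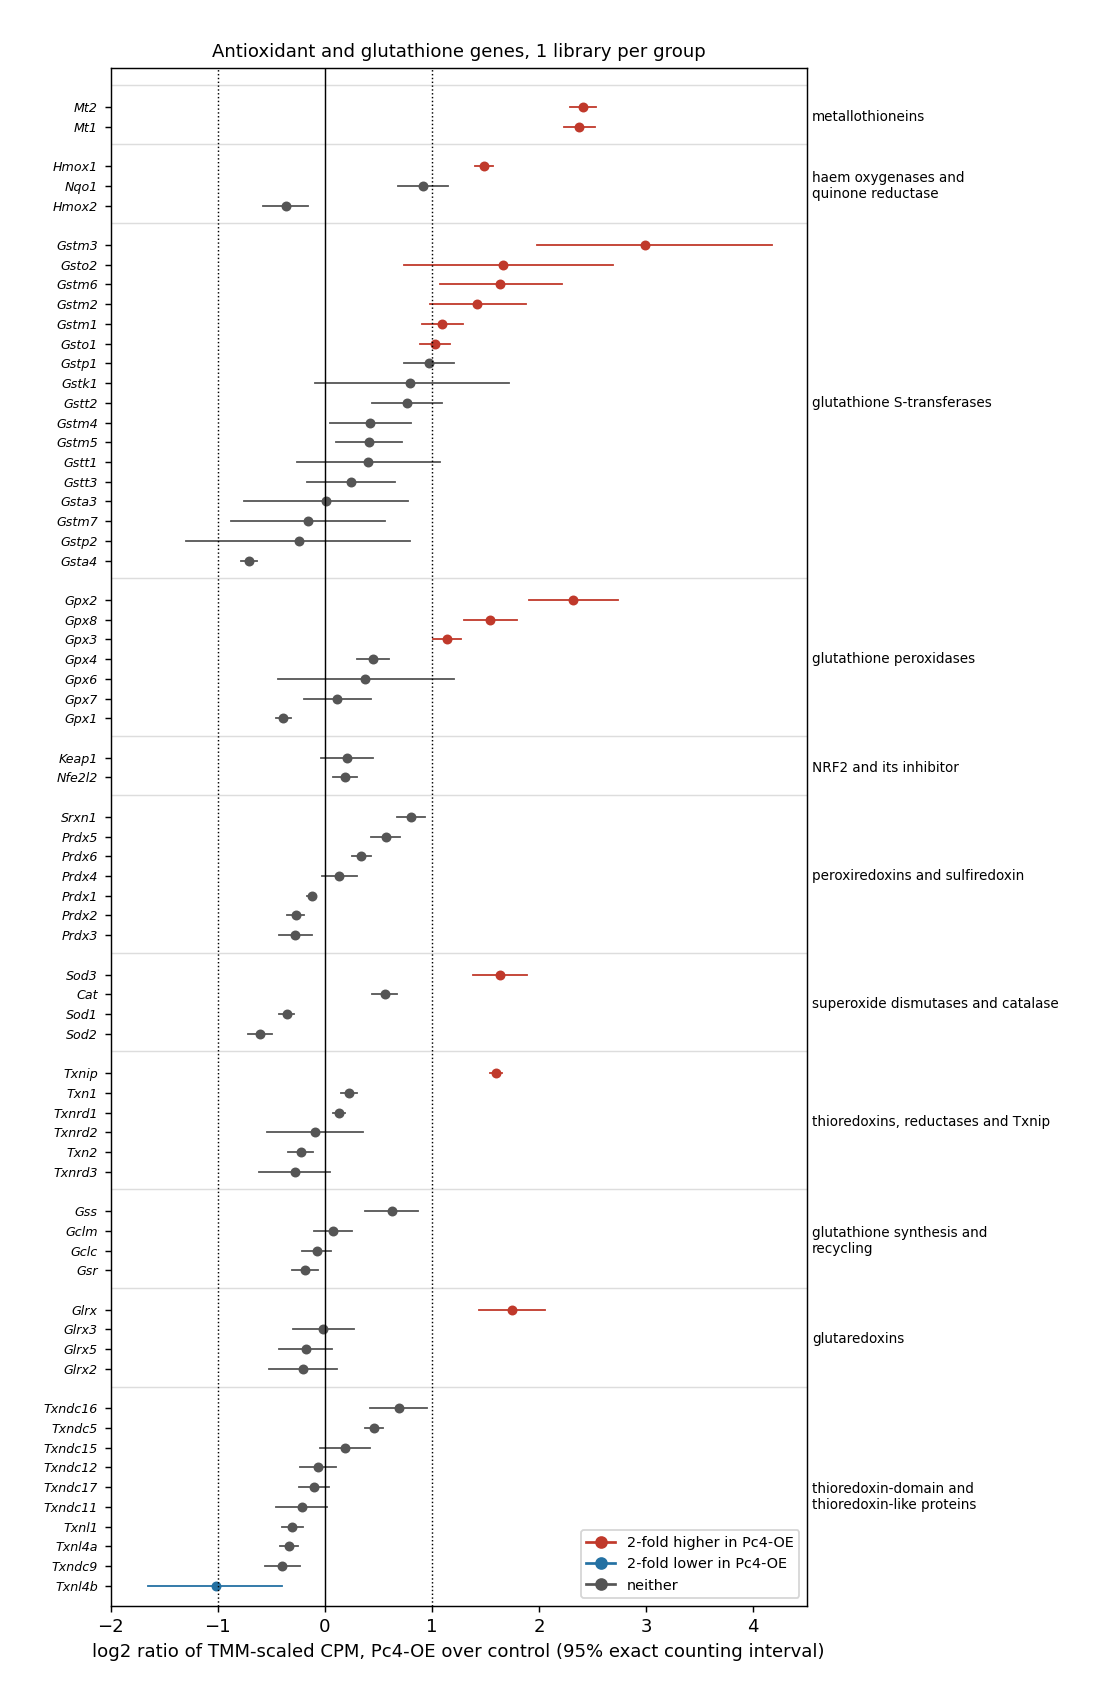
Log2 ratio (Pc4-OE over control, TMM-scaled CPM) of the 66 measured members by role, with 95% exact counting intervals; 1 library per group. Dotted lines mark 2-fold; Mt1, Mt2, Gpx2 and Gstm3 lie farthest to the right, at log2 ratios from 2.32 to 2.99, while Txnl4b, at -1.01, is the only member called lower.

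Markers of other cell types were also higher in the Pc4-OE-labelled library. All 24 fibroblast markers had a ratio above 1, 19 were called higher, and their summed level went from 4973 to 13031 CPM, 2.62-fold. Of 19 macrophage markers in the table, 18 were called higher, and the sum went from 237.6 to 670.5 CPM, 2.82-fold. No marker of either list was at 0 in either library. The 10 stem cell markers summed to 6163 and 4933 CPM, with 0 called in either direction. The pluripotency factor gene Pou5f1 came closest, at 1092 and 571.4 CPM (1.91-fold lower, 1.85 to 1.97). Of the 10 stem cell markers, the interval lay below 1 in 5, above 1 in 2 and held 1 in 3. Of 9 measured markers of primitive endoderm and trophoblast, 6 were called higher. In a bulk library, more cells of a type and more RNA per cell cannot be told apart. The ratios of 12 members lay above the summed fibroblast ratio. For Mt1, Mt2, Gpx2, Gstm3, Txnip, Glrx and Hmox1 the whole interval did, and for the first 5 of these 7 it also lay above the summed macrophage ratio. Abundant markers weigh most in these sums. Laptm5, the only macrophage marker not called, held 109.6 of the 237.6 CPM in the control-labelled library. It was at 131.6 CPM in the other, 1.20-fold higher (1.11 to 1.30). Without Laptm5 the macrophage ratio would be higher, and the comparison with the 5 genes was not repeated without it. The log2 ratios of single markers ran from 0.67 to 2.54 for fibroblasts (median 1.49) and from 0.26 to 3.68 for macrophages (median 2.10), so the log2 ratio of every member called higher lay within the macrophage range. The part of feeder, macrophage or differentiating cells in the members' values was not tested.

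**Figure D2:**
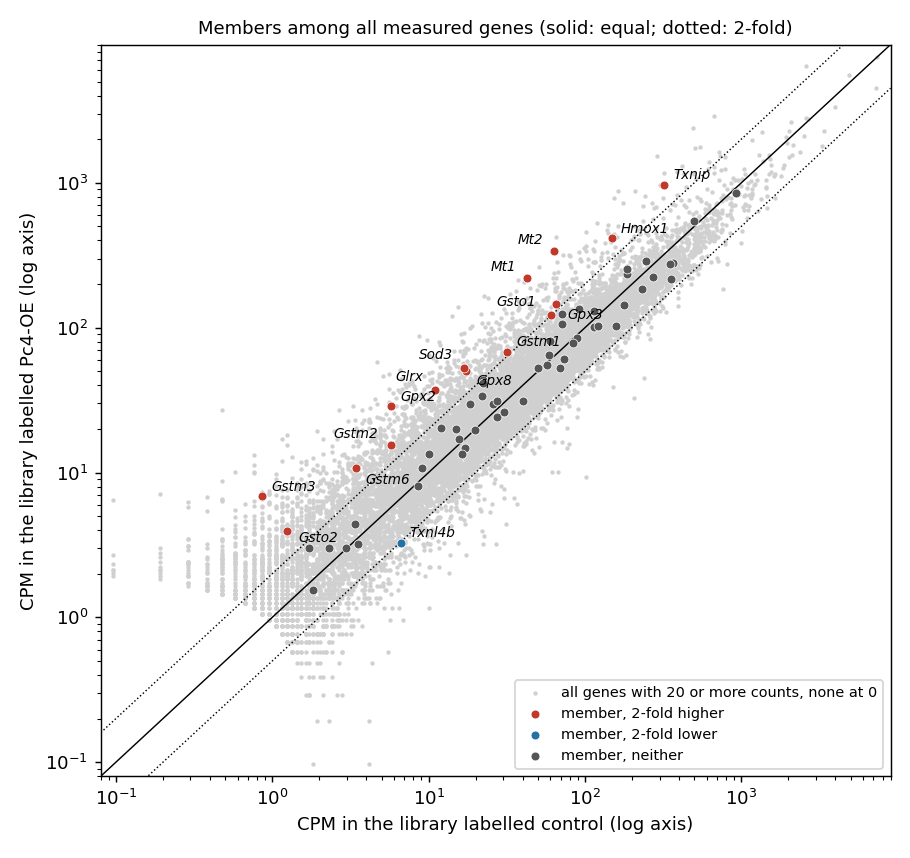
CPM in the control-labelled library (horizontal) and the Pc4-OE-labelled library (vertical), both on log axes, for all measured genes with a count in both libraries (grey) and the 66 members (coloured by call). Txnip, Hmox1, Mt1 and Mt2 are among the members above the upper 2-fold line; most members lie near the line of equality.

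The transcript of NRF2 differed little. Nfe2l2 was at 114.6 and 130.6 CPM (1.14-fold higher, interval 1.05 to 1.23). Keap1 was at 25.6 and 29.7 CPM, and the interval of its ratio held 1 (0.979 to 1.37). The count of Nfe2l2 was 4.47 times that of Keap1 in the control-labelled library (3.91 to 5.12) and 4.40 times in the other. Of 15 partners and regulators of NRF2 (median log2 ratio 0.27), 1 was called higher and 0 lower (11.8% and 4.02% of all genes). That gene was Sqstm1, which encodes the autophagy receptor p62 that sequesters KEAP1 and is itself an NRF2 target (196.6 and 406.0 CPM, 2.07-fold, interval 1.96 to 2.18). The small MAF partner Maff was at 1.88-fold (1.51 to 2.36). The repressor Bach1, which competes with NRF2 at its sites and acts on Hmox1, was at 74.5 and 104.4 CPM (1.40-fold, 1.28 to 1.54).

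Both metallothioneins were called higher, with log2 ratios of 2.38 and 2.41. Mt1 had 442 counts (42.4 CPM) in the control-labelled library and 2284 counts (220.7 CPM) in the Pc4-OE-labelled one, 5.20-fold higher (interval 4.69 to 5.77). Mt2 had 660 counts (63.4 CPM) and 3498 counts (338.0 CPM), 5.33-fold higher (4.91 to 5.80). The count of Mt2 was 1.49 times that of Mt1 in the control-labelled library (1.32 to 1.69) and 1.53 times in the other (1.45 to 1.62), so the intervals of the proportion overlapped while both levels were about 5-fold apart. They lie within 7.71 kb of each other on chromosome 8 (GRCm38). Mt3, in the same gene family, had 14 and 2 counts and Mt4 had 3 and 2, both under the count minimum.

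Because Mt1 and Mt2 moved together, 250 bases of each are printed here, from RefSeq promoters on GRCm38.p6, plus strand of chromosome 8. For Mt2 these are the bases before the start of the annotated gene. The annotated span of Mt1 begins at position 94178883, so most of its printed stretch lies inside that span. Promoters at other starts of Mt1 were not searched. Capitals mark metal response element cores (TGCACNC or TGCGCNC, either strand) and, in Mt2, the antioxidant response element core (TGACNNNGC, either strand), with no overlap between them.
Mt2, chr8:94172368-94172617: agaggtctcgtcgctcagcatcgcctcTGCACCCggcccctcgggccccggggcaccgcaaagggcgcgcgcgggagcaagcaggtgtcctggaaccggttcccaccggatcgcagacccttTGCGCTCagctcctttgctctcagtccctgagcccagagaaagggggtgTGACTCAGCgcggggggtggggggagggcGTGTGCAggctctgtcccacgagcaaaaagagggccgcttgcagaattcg
Mt1, chr8:94178839-94179088: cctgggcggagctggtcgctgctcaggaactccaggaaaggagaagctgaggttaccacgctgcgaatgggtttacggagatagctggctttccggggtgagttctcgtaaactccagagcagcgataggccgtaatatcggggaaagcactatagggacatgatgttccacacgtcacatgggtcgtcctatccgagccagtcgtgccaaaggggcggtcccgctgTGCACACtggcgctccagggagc

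Over the full window of 300 bases, which adds 50 bases after the printed stretch, the Mt2 promoter held 4 such metal response cores. The Mt1 window, most of which lies inside the annotated gene span, held 3. Of all 32851 promoters in that table, 0.518% held at least 4 and 1.97% at least 3, while 25.7% held at least 1. With any base allowed at the fourth position (TGCNCNC), Mt2 held 6 and Mt1 held 3, and 51.0% of all promoters held at least 1. A match describes the letters only and is not a measured site. Mtf1, the gene of the metal-responsive factor, was at 40.7 CPM in both libraries (log2 interval -0.20 to 0.20). Of 14 measured genes for metal handling (median log2 ratio 0.07), 2 were called higher and 0 lower (11.8% and 4.02% of all genes). They were the iron exporter Slc40a1 (6.15 and 28.9 CPM, 4.70-fold, 3.58 to 6.26) and the zinc importer Slc39a6 (57.6 and 115.5 CPM, 2.00-fold, 1.82 to 2.21). The zinc exporter Slc30a1, another MTF1 target, was at 27.9 and 41.0 CPM (1.47-fold, 1.26 to 1.71). The zinc importers Slc39a10 and Slc39a14 were lower, with log2 ratios of -0.77 and -0.60. Slc39a1, of the same gene family, was higher (55.4 and 78.4 CPM, 1.41-fold, 1.27 to 1.58). With Slc39a6, genes of this family thus lay on both sides of equality.

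Hmox1, the inducible enzyme that degrades haem to biliverdin, iron and carbon monoxide, had 1540 counts (147.9 CPM) in the control-labelled library and 4290 counts (414.5 CPM) in the Pc4-OE-labelled one, 2.80-fold higher (interval 2.64 to 2.97). Its constitutive relative Hmox2 was at 40.3 and 31.3 CPM, 1.29-fold lower (1.11 to 1.49). The count of Hmox1 was thus 3.67 times that of Hmox2 in the control-labelled library and 13.2 times in the other. Nqo1, a quinone reductase widely used as an NRF2 readout, was at 22.2 and 41.8 CPM. Its 1.89-fold excess (1.60 to 2.22) did not reach the 2-fold rule. Macrophages also express Hmox1 strongly when they take up haem. Their markers summed 2.82-fold higher, a sum held down by Laptm5. The median log2 ratio of single macrophage markers was 2.10, beside 1.49 for Hmox1. Which cells the Hmox1 transcript came from was not tested.

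The antioxidant response core was searched in the same way. Promoters were matched for 57 of the 66 measured members, and 12 of the 57 held TGACNNNGC in at least 1 promoter. By promoter this was 12 of 78, or 15.4%, against 12.4% of all promoters. Among the matched members the core was found in 1 of 13 called higher (Mt2) and in 11 of 43 called neither. This difference was not tested. Only the same short window at each RefSeq promoter was searched, so a core elsewhere in these genes would be missed. Mt1 had no match, but most of its window lies inside the annotated gene span, and its other starts were not searched. The cores of 5 members are shown here with 10 bases on each side, on the strand of the gene. Among these 5, only Mt2 and Prdx1 have the same core letters. Shared letters are not particular to that pair. Of the members not shown, Gstm7 has the core letters of Txnrd1, and Gstm5 and Sod1 have the same core as each other. Capitals mark the core.
Mt2, chr8:94172529-94172557, plus strand: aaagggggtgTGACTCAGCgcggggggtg
Prdx1, chr4:116685456-116685484, plus strand: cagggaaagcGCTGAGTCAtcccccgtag
Txnrd1, chr10:82859104-82859132, plus strand: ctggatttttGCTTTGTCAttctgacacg
Gclm, chr3:122245413-122245441, plus strand: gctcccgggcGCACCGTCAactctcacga
Nfe2l2, chr2:75704885-75704913, minus strand: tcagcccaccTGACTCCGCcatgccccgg

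The core of Prdx1, read on the opposite strand, is TGACTCAGC, the same as that of Mt2. Mt2 was 5.33-fold higher and Prdx1 was 1.09-fold lower. Txnrd1, Gclm and Nfe2l2 had log2 ratios of 0.13, 0.08 and 0.19. Srxn1, with a core 29 bases after its start, had a log2 ratio of 0.80. No promoter of Hmox1 was in the table.

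The genes that make and recycle glutathione differed little between the libraries, and 0 of 4 were called. Gclc, the catalytic subunit of glutamate-cysteine ligase, was at 89.0 and 84.5 CPM, with an interval of the log2 ratio from -0.21 to 0.06. Gclm, its modifier subunit, was at 49.8 and 52.7 CPM (log2 ratio 0.08, -0.10 to 0.26). Gsr, glutathione reductase, was at 114.7 and 101.2 CPM (1.13-fold lower, 1.04 to 1.23). Gss, glutathione synthetase, was the member with the largest ratio in this role, at 22.0 and 33.9 CPM (1.54-fold higher, 1.30 to 1.83). The 4 genes together summed to 275.5 and 272.3 CPM.

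Genes around this pathway lay on both sides of equality. Of 27 measured genes for glutathione supply and turnover (median log2 ratio 0.07), 6 were called higher and 0 lower (11.8% and 4.02% of all genes). The 6 were Esd, which hydrolyses S-formylglutathione (3.53-fold), the microsomal transferase Mgst1 (3.46-fold), the dipeptidase Dpep1 (3.54-fold on 29 and 102 counts), Ptges, a prostaglandin E synthase of the same membrane family (2.18-fold), Hpgds (15 and 33 counts) and Ggt5 (13 and 27 counts). Enzymes on the route from methionine to cysteine did not meet the rule. Mat2a, which makes S-adenosylmethionine, was at 348.0 and 202.3 CPM (1.72-fold lower, 1.63 to 1.82), and Cth, which releases cysteine from cystathionine, was at 153.9 and 102.8 CPM (log2 ratio -0.58). Cbs, which makes cystathionine, was at 42.3 and 45.6 CPM, with an interval of the log2 ratio that held 0. Gstcd and the glyoxalase Glo1 had log2 ratios of -0.65 and -0.49.

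Glutathione S-transferases held 6 of the 15 genes called higher, among 17 measured, with 0 called lower and a median log2 ratio of 0.76. The one with the highest level per length stood on the other side. Gsta4, an alpha-class enzyme that clears the lipid peroxidation product hydroxynonenal, had 3687 counts (354.1 CPM) in the control-labelled library and 2248 counts (217.2 CPM) in the Pc4-OE-labelled one, 1.63-fold lower (interval 1.55 to 1.72). Because of Gsta4, the summed level of the 17 genes was similar in both libraries, at 539.4 and 569.1 CPM. Gsta3 had 31 counts in each library.

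The mu class differed along its gene cluster. Its 7 genes lie within 149 kb of chromosome 3 in the order Gstm5, Gstm7, Gstm6, Gstm3, Gstm2, Gstm1, Gstm4. The 4 neighbours in the middle of that order, Gstm6 to Gstm1, were called higher, and the 3 genes at the ends were not. Gstm1, the highest of them per length, was at 31.9 and 68.3 CPM (2.14-fold, interval 1.88 to 2.45). Gstm2 was at 5.76 and 15.5 CPM (2.68-fold, 1.98 to 3.67), and Gstm6 at 3.46 and 10.7 CPM (3.10-fold, 2.11 to 4.65). Gstm3 had 9 and 71 counts (0.864 and 6.86 CPM), 7.94-fold higher with a wide interval of 3.95 to 18.1. Gstm4 and Gstm5 each had a log2 ratio of 0.42 with intervals above 0, and Gstm7 (37 and 33 counts) had one of -0.16 whose interval held 0. Some of these genes share sequence with other genes. Of the 50-base words in the longest transcript, 28.8% for Gstm3 and 23.2% for Gstm1 also occur in transcripts of other genes. Their counts may thus be split among copies. The gene sharing most was Gm8834 for Gstm3 (16.0%) and Gstm2-ps1 for Gstm1 (17.3%), both outside the 7. Gstm6 shared 11.5% and Gstm2 9.36%, while Gstm4, Gstm5 and Gstm7 shared 0%.

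**Figure D3:**
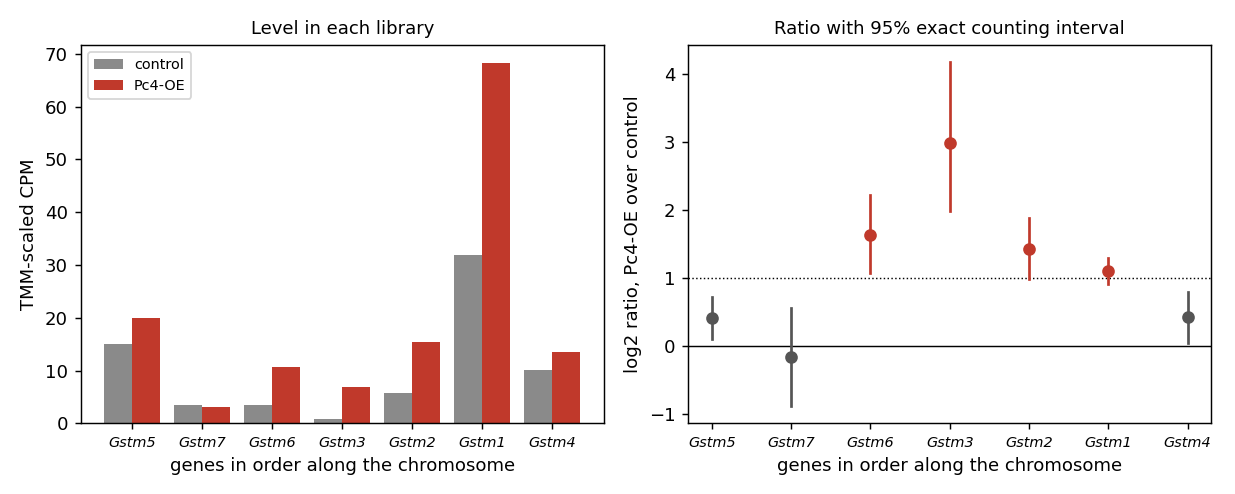
The 7 mu-class genes in their order along chromosome 3: TMM-scaled CPM in each library (left, bars from 0) and log2 ratio of Pc4-OE over control with 95% exact counting intervals (right, dotted line at 2-fold). Gstm6, Gstm3, Gstm2 and Gstm1, neighbours in the order, lie above the 2-fold line with log2 ratios from 1.10 to 2.99.

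Both omega-class genes were called higher. Gsto1, a transferase with glutaredoxin-like activity, was at 60.4 and 123.2 CPM (2.04-fold, interval 1.85 to 2.25), the called gene nearest to the upper threshold, and Gsto2 had 13 and 41 counts (3.17-fold, 1.67 to 6.45). Gstp1, of the pi class, lay just outside at 22.2 and 43.6 CPM (1.96-fold, 1.67 to 2.31). Its neighbour Gstp2 had 19 and 16 counts, and 62.3% of the words of Gstp1 also occur in Gstp2, so the values of this pair are uncertain. The theta-class genes Gstt1, Gstt2 and Gstt3 had log2 ratios of 0.40, 0.76 and 0.25, and only that of Gstt2 had an interval above 0. Gstk1 had 18 and 31 counts and an interval that held 0.

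Among the glutathione peroxidases, 3 of 7 measured genes were called higher and 0 lower, with a median log2 ratio of 0.45. The one with the highest level per length, Gpx1, was lower. Gpx1, the common cytosolic selenoenzyme, had 3789 counts (363.9 CPM) in the control-labelled library and 2877 counts (278.0 CPM) in the Pc4-OE-labelled one, 1.31-fold lower (interval 1.25 to 1.37). Gpx2, the epithelial form best known from the gut, had 60 counts (5.76 CPM) and 297 counts (28.7 CPM), 4.98-fold higher (3.76 to 6.69). Gpx3, the secreted form, was at 65.7 and 144.9 CPM (2.21-fold, 2.01 to 2.42). Gpx8, an enzyme of the endoplasmic reticulum membrane, was at 17.3 and 50.4 CPM (2.92-fold, 2.46 to 3.48).

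The count of Gpx3 was 0.181 times that of Gpx1 in the control-labelled library and 0.521 times in the other. Gpx4, which reduces lipid hydroperoxides and guards against ferroptosis, was at 59.4 and 81.3 CPM (1.37-fold, 1.23 to 1.52). Of the words in its longest transcript, 61.7% occur in a pseudogene, so its counts are uncertain. Gpx6 (24 and 31 counts) and Gpx7 (163 and 176 counts) had intervals that held a ratio of 1. Of 14 selenoprotein genes and genes of selenocysteine insertion, Sepn1 (2.28-fold) and Sepw1 (2.06-fold) were called higher and 0 lower (11.8% and 4.02% of all genes). Sephs1 was at 84.0 and 44.1 CPM (1.91-fold lower, 1.70 to 2.14).

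None of the 7 measured peroxiredoxin and sulfiredoxin genes was called. Prdx1, a cytosolic peroxiredoxin and the best-counted member, had 9626 counts (924.4 CPM) in the control-labelled library and 8805 counts (850.7 CPM) in the other, 1.09-fold lower (interval 1.06 to 1.12). Prdx2, also cytosolic, was at 271.5 and 225.3 CPM (log2 ratio -0.27), and the mitochondrial Prdx3 had 767 and 631 counts (1.21-fold lower, 1.09 to 1.34). Prdx5 was at 71.4 and 106.0 CPM (1.48-fold higher, 1.35 to 1.63) and Prdx6 at 185.5 and 235.2 CPM (1.27-fold higher, 1.19 to 1.35). Prdx4, of the endoplasmic reticulum, had an interval of the log2 ratio from -0.02 to 0.30. Srxn1, which repairs overoxidised peroxiredoxins and is an NRF2 target, was at 71.6 and 125.0 CPM (1.75-fold higher, 1.59 to 1.91). The 7 genes summed to 1657 and 1668 CPM, so the family total differed by little.

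In the thioredoxin system the reductases and thioredoxins differed little, and their inhibitor stood out. Txnip, which binds thioredoxin and also restrains glucose uptake, had 3337 counts (320.5 CPM) in the control-labelled library and 10032 counts (969.3 CPM) in the Pc4-OE-labelled one, 3.02-fold higher (interval 2.91 to 3.15). Txn1, the cytosolic thioredoxin, was at 246.0 and 287.9 CPM (1.17-fold higher, 1.11 to 1.23). The count of Txnip went from 1.30 times that of Txn1 (1.24 to 1.37) to 3.37 times (3.23 to 3.51), without correction for length. Per kilobase of the longest transcript, Txnip was at 113.4 and 342.9 CPM and Txn1 at 234.1 and 274.0 CPM. On that scale Txnip was below Txn1 in the control-labelled library and above it in the other. Txnrd1, the cytosolic reductase and an NRF2 target, was at 500.1 and 548.8 CPM (1.10-fold higher, 1.06 to 1.14). The mitochondrial Txn2 was at 120.3 and 102.9 CPM (1.17-fold lower, 1.08 to 1.27), and Txnrd2 and Txnrd3 had intervals that held 1. The summed CPM of all 66 members went from 6251 to 7770, a difference of 1519 CPM, of which Txnip made up 648.8.

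Of the 4 glutaredoxins, which reduce mixed disulphides with glutathione, only Glrx was called. It had 115 and 383 counts, 3.35-fold higher (interval 2.71 to 4.16). Glrx2, Glrx3 and Glrx5, which serve mitochondria or iron-sulphur proteins, had log2 ratios of -0.20, -0.01 and -0.18, each with an interval that held 0.

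The 3 superoxide dismutases differed in direction. The secreted Sod3 had 176 counts (16.9 CPM) in the control-labelled library and 543 counts (52.5 CPM) in the other, 3.10-fold higher (interval 2.61 to 3.70). It lies on chromosome 5, where the median log2 ratio of 753 genes was -0.32. Fibroblasts are among the cells known to secrete it, and their markers summed 2.62-fold higher in the same library. The cell source of the Sod3 transcript was not tested. The cytosolic Sod1 was at 352.4 and 275.7 CPM (1.28-fold lower, 1.22 to 1.34) and the mitochondrial Sod2 at 157.2 and 103.4 CPM (1.52-fold lower, 1.41 to 1.64). Catalase (Cat), the peroxisomal enzyme that breaks down hydrogen peroxide, was at 91.0 and 134.1 CPM (1.47-fold higher, 1.36 to 1.60).

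Symbols that begin with Txndc or Txnl name proteins that share a thioredoxin fold but often have other tasks, and 10 of 12 were measured. Txnl4b, a relative of the spliceosome protein encoded by Txnl4a, had 69 and 34 counts (6.63 and 3.29 CPM), 2.02-fold lower (interval 1.32 to 3.14). That call was lost with library totals (log2 ratio -0.97) and with a pseudocount of 0.5 CPM (-0.91). Txnl4a was at 233.3 and 185.3 CPM (1.26-fold lower), the proteasome-associated Txnl1 at 176.6 and 143.3 CPM (1.23-fold lower), and Txndc9, a chaperonin cofactor, at 69.3 and 52.7 CPM (1.32-fold lower). Txndc5, a disulphide isomerase of the endoplasmic reticulum, was at 185.2 and 255.1 CPM (1.38-fold higher, 1.30 to 1.46), and Txndc16 at 18.4 and 29.8 CPM (1.61-fold higher, 1.34 to 1.94). Txndc11, Txndc12, Txndc15 and Txndc17 had intervals that held 1. Of 13 measured disulphide isomerases and related oxidases of the secretory pathway, Qsox1 was called higher (3.05-fold) and 0 lower (11.8% and 4.02% of all genes). The median log2 ratio of the 13 was 0.10.

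Of 25 other NRF2 targets measured (median log2 ratio 0.55), 9 were called higher and 0 lower (11.8% and 4.02% of all genes). The ferritin heavy chain gene Fth1 was at 510.5 and 1056 CPM (2.07-fold, interval 2.00 to 2.14), the epoxide hydrolase Ephx1 at 54.3 and 155.3 CPM (2.86-fold, 2.60 to 3.16) and the glutathione-conjugate exporter Abcc1 at 116.6 and 286.3 CPM (2.46-fold, 2.30 to 2.63). The cystine transporter gene Slc7a11 was at 15.2 and 31.6 CPM (2.08-fold, 1.72 to 2.53). The others were Esd, Aox1 (3.76-fold), Cbr3 (2.34-fold), Osgin1 (12 and 55 counts) and Aldh3a1 (6 and 29 counts). Higher without meeting the rule were the biliverdin reductase Blvrb (1.78-fold, 1.54 to 2.06) and the malic enzyme Me1 (1.81-fold, 1.54 to 2.13), which makes NADPH. The ferritin light chain gene Ftl1 was at 1348 and 2253 CPM (1.67-fold), and its whole interval lay below 2 (1.64 to 1.71). Pentose phosphate enzymes were at or below equality: Pgd was at 240.5 and 161.4 CPM (1.49-fold lower, 1.40 to 1.59), and G6pdx, Tkt and Taldo1 had log2 ratios of -0.26, -0.26 and 0.02.

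Among sources of superoxide and peroxide (median log2 ratio 1.22), 7 of 11 measured genes were called higher and 0 lower (11.8% and 4.02% of all genes). Cybb, the catalytic subunit of the phagocyte oxidase, was at 4.13 and 23.5 CPM (5.69-fold, interval 4.10 to 8.06). Its partners Ncf1 (14 and 52 counts), Ncf4 (1 and 24 counts) and Rac2 (32 and 131 counts) were also called, and Cyba had 202 and 395 counts (1.97-fold). These are genes of phagocytes, as are the macrophage markers, but the cells that their transcripts came from were not tested. Xdh, xanthine dehydrogenase, was at 7.49 and 40.4 CPM (5.39-fold, 4.22 to 6.96), and Ero1l, which passes electrons from disulphide formation to oxygen, at 235.5 and 549.0 CPM (2.33-fold, 2.22 to 2.45). Nox4, a non-phagocyte oxidase, had 39 and 81 counts (2.09-fold, 1.41 to 3.15).

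**Figure D4:**
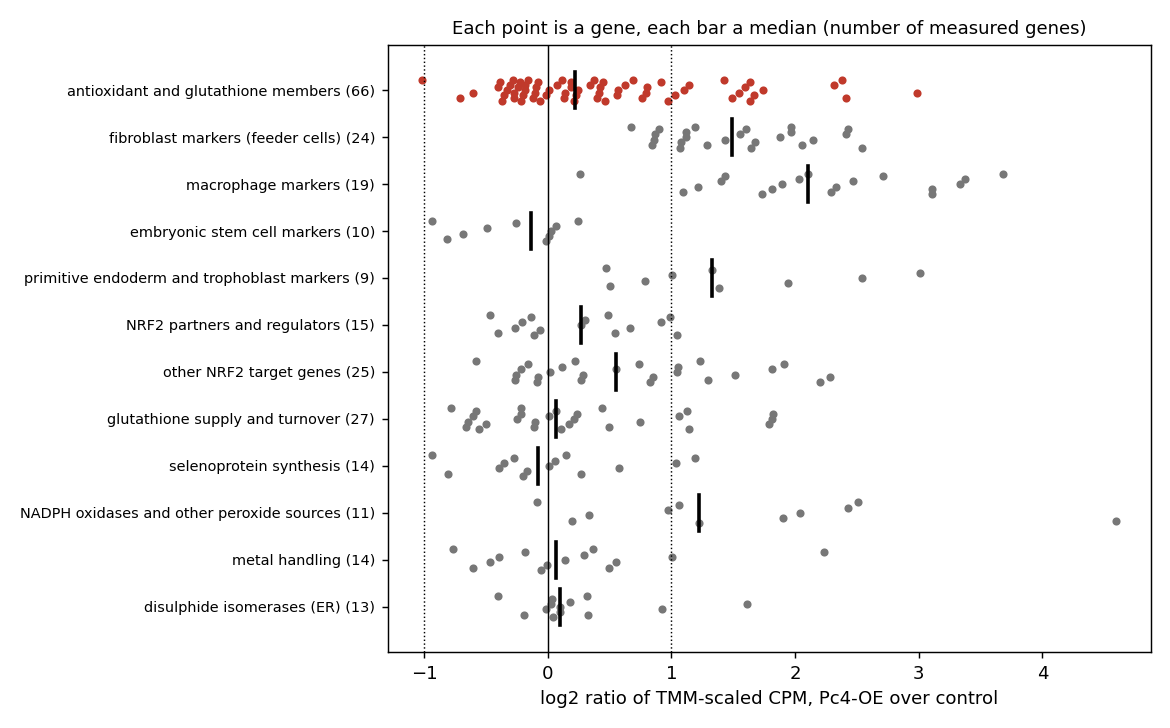
Log2 ratio (Pc4-OE over control) of each measured gene in the members and in the marker and pathway lists, with a bar at each list's median; numbers of genes are in brackets. The members have a median of 0.22, stem cell markers one of -0.13, and fibroblast markers, macrophage markers and peroxide sources lie to the right with medians of 1.49, 2.10 and 1.22.

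Levels of different genes can be set side by side only per length. The count proportions of gene pairs given above are not corrected for length and serve only to compare the libraries. Per kilobase of the longest annotated transcript, Prdx1 was the highest member in the control-labelled library (403.0 CPM per kb), followed by Gsta4 (362.4), Gpx1 (339.4) and Txn1 (234.1). In the Pc4-OE-labelled library Mt2 ranked first at 661.4 CPM per kb, against rank 7 and 124.0 in the control-labelled one, followed by Prdx1 (370.8), Txnip (342.9) and Txn1 (274.0). The order depends on the transcript chosen. With the principal transcript, tagged for 55 of the 66 members but not for Txnip, Sod1 ranked first in the control-labelled library (549.8 CPM per kb on 641 bases, against 88.8 on 3970 bases), and Mt2 was still first in the Pc4-OE-labelled one.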

How the data were processed

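The deposited table gives whole-number read counts per gene for 2 libraries made from poly(A) RNA with a stranded kit, per the labels' protocols. Per the submitters' processing notes, the authors used STAR 2.4.1c, featureCounts and build mm10; the sources used here do not give the annotation, strand setting or handling of multiply mapped reads. Each column name equals a sample title. Library sizes were scaled by TMM over the whole table (edgeR 4.0.16, R 4.3.3). Ratios carry no pseudocount, and their 95% Clopper-Pearson intervals come from the 2 counts of a gene. Reads are not independent molecules, so intervals cover counting error only. With 1 library per group no test was run. Simulated data with known folds were used to check the code of the calls. They held counting error only, so they cannot show how the calls hold under variation between libraries. Positions came from a RefSeq table of GRCm38 by Entrez ID (74 of 74 members), transcript lengths and 50-base words from GENCODE M21 (66 of 66 measured members), and promoters from RefSeq. Motifs were searched on both strands. Every member could be named; of each pathway list, the genes called and up to 4 more, ranked by how far from 1 the nearer bound of their interval lay. Members and lists were chosen with earlier results of these data known. Bach1, Slc30a1, Mtf1, Mt3, Mt4, G6pdx, Tkt, Taldo1, Cbs and Pou5f1 were picked with their values in view, as were the TGCACNC and TGCGCNC motifs. Alternatives were other scaling (library totals, or DESeq2 1.42.0 size factors), a pseudocount of 0.5 CPM, count minimums of 5 and 100, a 1.5-fold threshold, and leaving out chromosomes 5 and 15 or the Txndc and Txnl genes.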

Additional observations from a re-analysis of the deposited data

How the results depend on the processing

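The number of members called 2-fold higher was 15, and under the 8 alternatives it lay between 13 (count minimum of 100) and 21 (1.5-fold threshold). The number called 2-fold lower was 1, all of it Txnl4b. It was 0 with library totals, 0 with a pseudocount of 0.5 CPM, 0 without the Txndc and Txnl genes, which removes Txnl4b, and 3 at 1.5-fold. The median log2 ratio of the members ranged from 0.20 to 0.36. With library totals every log2 ratio was higher by 0.04, and Gstp1 then met the rule (1.02) while Txnl4b did not (-0.97). No called member changed direction under another scaling or the pseudocount. Ranks per length changed with the transcript used, an alternative chosen after seeing the data. No paired analysis was possible because each group has 1 library, and no replicate could be left out. At 100 counts summed, equal libraries give an interval from 0.662 to 1.51, so for the 8 measured members below that, smaller differences were not detectable at this depth.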
